A study of Mus musculus with 9 samples.

Results

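The FOS, JUN and EGR genes were followed at the RNA level in mouse embryonic stem cells in which the Polycomb subunit Suz12 was degraded and then allowed to return. The group was chosen by gene family, from the symbols of the annotated gene identifiers. It holds 10 genes of the 48440 in the count tables: Fos, Fosb, Fosl1, Fosl2, Jun, Junb, Jund, Egr1, Egr2 and Egr3. Of these, 9 passed the filter on low counts, as did 20838 genes of the whole table. Egr2 did not pass and is described by its counts only.

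Polyadenylated RNA was sequenced from J1 mouse embryonic stem cells of the genotype Suz12-AID, in which Suz12 carries an auxin-inducible degron: added auxin, a plant hormone, causes the tagged protein to be destroyed. PRC2, the Polycomb complex that deposits H3 lysine methylation at silenced loci, needs Suz12 for its assembly. The 9 libraries formed 3 groups of 3 replicates. Mock cells served as controls, Auxin cells were kept in 50 µM auxin for 96 h, and in Re-introduction cells the hormone was washed out for 4.5 h after that treatment. All groups carried the degron and were grown on gelatin in serum with leukemia inhibitory factor (LIF) and with the inhibitors PD0325901 and CHIR99021. PD0325901 inhibits the kinase MEK, which lies upstream of many of these genes, and CHIR99021 inhibits the kinase GSK3, so every level below was measured with both pathways inhibited. The labels name neither a clone nor separate cultures, and a group with washout and no preceding auxin was not analysed here, so the return of Suz12, the loss of the hormone and the medium change itself cannot be told apart. With no separate cultures named, p-values measure only the spread between these libraries.

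FOS and JUN proteins are leucine zipper factors that pair to form AP-1, which binds a short palindrome in enhancers and promoters. JUN proteins can pair with each other, whereas FOS proteins need a JUN or another zipper partner, so the set of subunits present decides which dimers can form. EGR proteins are zinc finger factors that bind GC-rich sites. Most of these genes belong to the immediate early class, whose RNA is made within minutes of a growth factor, stress or serum signal without new protein synthesis, and is degraded quickly. In embryonic stem cells, signalling through the MAP kinase ERK drives Egr1 and Fos and pushes cells out of the naive state.

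The libraries held between 44341283 and 113931419 counts. Markers fixed for the labelled cell type were present in each library: the 10 pluripotency genes were all above 0 and summed to 6186 to 6367 CPM (TMM-scaled counts relative to library size) in Mock, 7625 to 8182 in Auxin and 5956 to 6024 in Re-introduction. Of all genes tested, 38.4% were called higher and 34.8% lower in Auxin against Mock, and the marker counts here are to be read beside these shares. The pluripotency genes did not move together: in that comparison 7 were called higher and 3 lower. The 3 were Pou5f1 (844 CPM in Mock and 583 in Auxin), Dppa5a (411 and 184) and Utf1 (111 and 54). Suz12 RNA itself lay at 125 to 138 CPM in Mock, 122 to 152 in Auxin and 164 to 173 in Re-introduction. The degron acts on the protein, so these levels do not check the labels. Fibroblast markers summed to 21.99 to 24.62 CPM in Mock, 44.19 to 53.52 in Auxin and 41.03 to 42.26 in Re-introduction. Thy1 (17.9, 41.2 and 37.5 CPM) made up most of that sum. Of the 4 tested of 8, Thy1 and Pdgfrb were called higher in Auxin than in Mock, Col1a1 was called lower, and Col1a2 did not pass (0.85, adjusted p = 0.0646). The other 4 markers were at means of 0.0227 CPM or less in each group, and Lum, Dcn and Col3a1 at 0 in Auxin. Markers of primitive endoderm, an early sister lineage, summed to 6 to 7.47 CPM in Mock, 22.75 to 23.63 in Auxin and 14.2 to 15.99 in Re-introduction, and 7 of 7 were called higher in Auxin than in Mock. None of the 7 was at 0 in any library. Trophoblast markers summed to 28.16 to 29.9 CPM in Mock, 83.18 to 92.09 in Auxin and 44.05 to 49.07 in Re-introduction, with 4 of the 5 tested higher and 1 lower in Auxin against Mock and most of the sum from Tfap2c (27.2, 86.6 and 45 CPM). Among those called higher, Gata3 (0.101, 0.471 and 0.286 CPM), Hand1 (0.0657, 0.326 and 0.213) and Krt7 (0.0669, 0.206 and 0.33) passed the filter only through libraries outside Mock. Their calls are thus no independent sign of a rise. Mesoderm markers summed to 47.54 to 49.24, 27.01 to 29.43 and 69.84 to 72.71 CPM in the same order, with 1 of the 4 tested higher and 3 lower in Auxin against Mock. Most of that sum came from Eomes (35.4, 25.6 and 66.9 CPM). In Re-introduction against Mock, where 34.7% of all genes were called higher and 33.4% lower, 2 mesoderm markers were higher and 2 lower. The latter were T (9.82, 0.255 and 1.36 CPM) and Mixl1 (2.22, 0.383 and 0.545 CPM). Neural ectoderm markers summed to 5.396 to 6.833, 10.39 to 14.52 and 9.963 to 11.65 CPM. Of the 3 tested, 1 was higher and 1 lower in Auxin against Mock. Most of the sum was Map2 (4.63, 11.9 and 9.11 CPM), the gene called higher. Pax6 was called lower (0.491, 0.287 and 0.359 CPM), and Sox1 did not pass (1.11, 0.825 and 1.27 CPM). With the dependence of counts on gene length removed, the Map2 rise from Mock to Auxin shrank from 1.36 to 0.58 log2 units. Under the same change Map2 lost its call in Re-introduction against Mock (0.98 to 0.18). It kept that call with the dependence on GC content removed as well (0.28). The part of the cells these markers stand for in the results below was not tested. In such bulk RNA, a change in the share of cells that express a gene and a change in RNA per cell cannot be told apart.

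Promoter windows are shown for 4 members whose RNA changed between the groups, so that their start regions can be compared by eye. Each runs from 250 bases before to 50 bases after the RefSeq start on GRCm38.p6, the same assembly as mm10, and is written on the gene's own strand. Capitals mark motif matches found by a search of both strands. Positions count from the start, with 1 the first transcribed base and -1 the base before it.
Jun (chr4:95052173-95052472, minus strand): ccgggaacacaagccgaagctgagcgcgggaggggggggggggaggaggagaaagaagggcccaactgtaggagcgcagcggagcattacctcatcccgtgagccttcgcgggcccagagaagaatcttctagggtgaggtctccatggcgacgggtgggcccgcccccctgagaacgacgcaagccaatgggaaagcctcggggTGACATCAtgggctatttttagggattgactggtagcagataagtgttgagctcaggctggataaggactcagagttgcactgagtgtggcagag
Fosl2 (chr5:32136222-32136521, plus strand): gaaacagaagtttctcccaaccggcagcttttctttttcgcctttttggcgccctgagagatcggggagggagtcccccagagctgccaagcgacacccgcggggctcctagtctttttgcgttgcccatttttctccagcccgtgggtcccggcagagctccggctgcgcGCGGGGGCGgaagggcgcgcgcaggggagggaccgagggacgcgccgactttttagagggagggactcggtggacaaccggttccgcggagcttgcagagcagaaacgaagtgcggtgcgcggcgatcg
Fos (chr12:85473640-85473939, plus strand): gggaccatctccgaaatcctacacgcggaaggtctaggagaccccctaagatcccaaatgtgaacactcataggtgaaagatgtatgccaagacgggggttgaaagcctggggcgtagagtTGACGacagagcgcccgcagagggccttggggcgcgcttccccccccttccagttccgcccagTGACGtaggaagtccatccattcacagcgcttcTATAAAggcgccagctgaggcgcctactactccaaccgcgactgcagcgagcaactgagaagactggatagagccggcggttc
Junb (chr8:84978699-84978998, minus strand): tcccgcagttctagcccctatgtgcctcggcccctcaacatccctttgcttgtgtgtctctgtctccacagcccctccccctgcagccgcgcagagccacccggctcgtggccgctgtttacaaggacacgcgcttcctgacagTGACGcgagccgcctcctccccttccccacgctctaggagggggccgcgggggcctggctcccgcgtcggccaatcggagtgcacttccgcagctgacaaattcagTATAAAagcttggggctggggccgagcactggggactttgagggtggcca

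The Jun window holds TGACATCA from -45 to -38, a variant AP-1 and ATF site that 3.6% of all 32851 mouse promoter windows of this length contain. The Fosl2 window holds GCGGGGGCG from -79 to -71, a match to the EGR site GCGNGGGCG that occurs in 5.6% of windows. In the Fos window the core of the cyclic AMP response element (CRE), TGACG, occurs from -129 to -125 and from -66 to -62, and TATAAA from -33 to -28. The Junb window holds TGACG from -106 to -102 and TATAAA from 1 to 6. Its RefSeq start lies upstream of the counted Junb gene, so this TATAAA precedes the counted exon. The RefSeq start of the Fosl2 window lies inside the counted Fosl2 gene. TGACG is found in 20.8% of all windows and TATAAA in 13.6%. The full CRE (TGACGTCA, 1.8% of windows) and the AP-1 site proper (TGACTCA or TGAGTCA, 5.2%) have no match in these 4 windows, and neither has the CArG box bound by serum response factor (1.6%). Windows were given for 7 of the 10 members. That of Fosb holds TGACG from -60 to -56 and GCGGGGGCG from -50 to -42, that of Jund, which lies upstream of the counted gene, has no match to any motif searched (those above and the stress-response site TGATGNAA, 4.0% of windows), and a CArG box is present in 4 of the 5 overlapping or neighbouring windows of Egr2.

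In Auxin against Mock, 5 of the 9 tested members were higher and 3 were lower, and 1 did not pass the test (edgeR quasi-likelihood test, Benjamini-Hochberg adjusted p under 0.05). Fosl2, Jun, Jund and Fos were 14.3-fold, 5.69-fold, 3.00-fold and 2.02-fold higher, and Egr1 was 4.95-fold lower. The other member called higher, Egr3, had few counts and passed the filter through Auxin and Re-introduction libraries only. Across all genes tested, 73.2% were called in this comparison, 38.4% higher and 34.8% lower, so a call by itself sets no member apart. With total counts in place of TMM, the share of all calls that were higher moved from 52.4% to 63.3% and the median of all genes from 0.05 to 0.26. The median log2 fold change of the 9 members was 1.02, against 0.05 for all genes tested. That median depends on Egr3: without it, the median would lie between the values of Junb (-0.26) and Fos (1.02). The libraries of the groups did not overlap for 7 of the 9, Egr3 among them, against 74.3% of all genes. In Re-introduction against Auxin, 1 member was higher, 4 were lower and 4 did not pass, where 50.9% of all genes were called (25.5% higher and 25.5% lower). The members' median was -0.44, against 0.003 for all genes, and 6 of 9 had groups without overlap, against 58.2%. Without Egr3 this median would lie between the values of Fos (-0.44) and Egr1 (0.21). In Re-introduction against Mock, 5 were higher, 1 was lower and 3 did not pass, against 68.1% of all genes called (34.7% higher and 33.4% lower). The median was 0.57, against 0.03 for all genes, and 6 of 9 did not overlap, against 75.2%. Without Egr3 it would lie between the values of Junb (0.33) and Fos (0.57). The shares of members called are close to these backgrounds. The 3 comparisons use the same 9 libraries pairwise, so their values are given side by side and are not independent of each other.

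**Figure D1:**
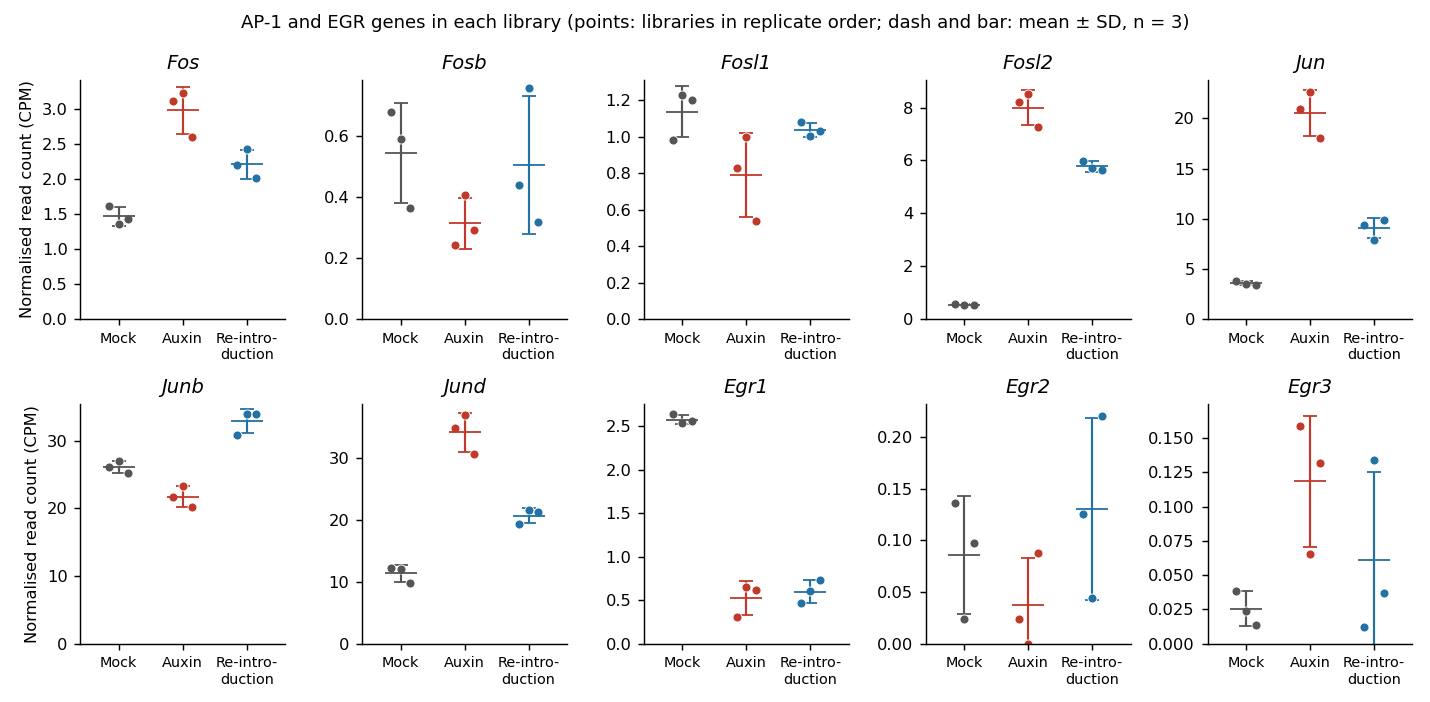
Normalised read counts (CPM, vertical axes, each starting at 0 with its own scale) of the 10 genes in the 3 Mock, 3 Auxin and 3 Re-introduction libraries. Points are libraries, and the dash and bar give the mean and SD (n = 3), with bars cut at 0. Fosl2, Jun, Jund and Fos rise from Mock to Auxin and lie in between after washout, while Egr1 is low in both Auxin and Re-introduction.

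Among the FOS genes, Fosl2 moved furthest. Fosl2 encodes Fra-2, a FOS protein that lacks the strong transactivation domain of c-Fos (ENSMUSG00000029135.10, chr5:32135801-32157842, plus strand, 9680 bp of exon). It stood at 0.563, 0.555 and 0.560 CPM in Mock, at 8.21, 8.52 and 7.27 in Auxin, and in Re-introduction at 5.998, 5.70 and 5.63. The 3 groups were fully separate, with the Mock libraries nearly identical and the Re-introduction libraries much closer to Auxin than to Mock. Its log2 fold change was 3.84 in Auxin against Mock (SE 0.106, adjusted p = 2.35e-10), which ranked 216 from the top of 20838 genes. It fell by 0.47 on the log2 scale in Re-introduction against Auxin (SE 0.0846, adjusted p = 0.000794) and remained 3.37 above Mock (SE 0.107, adjusted p = 2.58e-09), at rank 141. Of the difference in CPM that separated Auxin from Mock, 29.9% ± 2.64 (SD, n = 3) was gone after washout. Here and for the genes below, such a share takes the Auxin and Mock means as fixed. Its SD therefore covers only the 3 Re-introduction libraries and leaves out the spread within Auxin and Mock.

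Fos, the founding c-Fos gene (ENSMUSG00000021250.13, chr12:85473890-85477273, plus strand, 2352 bp), moved the same way by less. It measured 1.62, 1.36 and 1.43 CPM in Mock, 3.12, 3.23 and 2.6 in Auxin, with 2.20, 2.43 and 2.01 in Re-introduction. No library of one group reached the range of another. Fos was higher by 1.02 on the log2 scale in Auxin against Mock (SE 0.131, adjusted p = 2.87e-05) and by 0.57 in Re-introduction against Mock (SE 0.135, adjusted p = 0.00289). It fell by 0.44 in Re-introduction against Auxin (SE 0.13, adjusted p = 0.0147). That fall no longer passed without Re-introduction replicate 3 (-0.39, adjusted p = 0.0565). The share of the Auxin difference lost after washout was 51.0% ± 13.9 (SD, n = 3).

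Fosl1 and Fosb were not called higher in Auxin than in Mock. Fosl1 encodes Fra-1, the other FOS protein without a strong transactivation domain (ENSMUSG00000024912.5, chr19:5447703-5455945, plus strand, 1707 bp). It measured 0.980, 1.23 and 1.203 CPM in Mock, 0.829, 0.997 and 0.540 in Auxin, and in Re-introduction 1.08, 1.00 and 1.03. The Mock and Auxin libraries overlapped. Its log2 fold change of -0.52 in Auxin against Mock (SE 0.21) only just passed the test (adjusted p = 0.0448), and the call was lost in 15 of 19 alternative settings (adjusted p up to 0.324). Among fits without 1 library, it held only without Mock replicate 1 or Auxin replicate 2. Against Auxin, Re-introduction gave 0.39 (adjusted p = 0.157), and against Mock -0.13 (adjusted p = 0.609). Fosb, whose products include the long-lived ΔFosB (ENSMUSG00000003545.3, chr7:19302696-19310051, minus strand, 6243 bp), lay between 0.364 and 0.679 CPM in Mock, 0.244 and 0.407 in Auxin, and in Re-introduction between 0.319 and 0.757. The 3 ranges overlapped, and none of the 3 comparisons passed the test, with log2 fold changes of -0.81 (adjusted p = 0.0615), 0.62 (adjusted p = 0.195) and -0.19 (adjusted p = 0.642). In Auxin against Mock, Fosb did pass as lower in 8 of 18 alternatives, among them the length trend removed (-1.16, adjusted p = 0.0121) and the fits without Mock replicate 3 (-1.03, adjusted p = 0.0279), Auxin replicate 2 (-1.05, adjusted p = 0.0254), Re-introduction replicate 2 (adjusted p = 0.0393) or Re-introduction replicate 3 (adjusted p = 0.049).

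Of the JUN genes, Jun and Jund rose in Auxin while Junb did not. Jun encodes c-Jun, the strongest activator of the family and a substrate of the JNK kinases (ENSMUSG00000052684.4, chr4:95049034-95052222, minus strand, a single exon of 3189 bp). It measured 3.86, 3.50 and 3.46 CPM in Mock, 20.9, 22.7 and 18.1 in Auxin, and in Re-introduction 9.41, 7.93 and 9.90. The groups were separate, with Re-introduction between the others. The log2 fold change was 2.51 in Auxin against Mock (SE 0.109, adjusted p = 4.58e-09), -1.17 in Re-introduction against Auxin (SE 0.103, adjusted p = 3.92e-06) and 1.34 in Re-introduction against Mock (SE 0.11, adjusted p = 1.28e-06). After washout 67.7% ± 6.05 (SD, n = 3) of the Auxin difference was gone. Reads were counted without regard to strand, and Jun shares 232 bp of exon with the antisense gene Junos, which drew 154 counts over the 9 libraries against 7530 for Jun.

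Jund, the most broadly and stably transcribed JUN gene (ENSMUSG00000071076.6, chr8:70698949-70700616, plus strand, a single exon of 1668 bp), measured 12.2, 12.1 and 9.81 CPM in Mock, 34.9, 36.9 and 30.7 in Auxin, with 19.4, 21.5 and 21.2 in Re-introduction. Again no groups overlapped and Re-introduction lay in between. It was higher by 1.59 on the log2 scale in Auxin than in Mock (SE 0.097, adjusted p = 5.98e-08) and by 0.86 in Re-introduction than in Mock (SE 0.0969, adjusted p = 1.39e-05), and it fell by 0.72 in Re-introduction against Auxin (SE 0.0948, adjusted p = 8.11e-05). The share of the Auxin difference lost was 59.0% ± 5.14 (SD, n = 3). An opposite-strand gene model, Gm11175, covers 52.6% of the Jund exon and held 0 counts. Reads in the shared stretch belong to neither gene under the counting used, so the Jund level is an undercount.

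Junb encodes a JUN protein that can oppose c-Jun at shared targets (ENSMUSG00000052837.6, chr8:84974484-84978718, minus strand, 2301 bp of exon, of which 7.5% is shared with Prdx2 on the other strand, which held 56183 counts against 18392 for Junb). It measured 26.1, 26.9 and 25.1 CPM in Mock, 21.7, 23.3 and 20.1 in Auxin, and in Re-introduction 30.8, 34.0 and 33.9. Auxin libraries were the lowest and Re-introduction libraries the highest, with no overlap. In Auxin against Mock the log2 fold change was -0.26 (SE 0.0679, adjusted p = 0.00444). That call was lost with total counts in place of TMM (-0.05, adjusted p = 0.462) and with length and GC trends removed (-0.05, adjusted p = 0.467). Junb rose by 0.60 in Re-introduction against Auxin (SE 0.0681, adjusted p = 2.88e-05) and ended 0.33 above Mock (SE 0.0676, adjusted p = 0.00109), so that after washout it had passed the Mock level, unlike Jun, Jund, Fos and Fosl2.

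**Figure D2:**
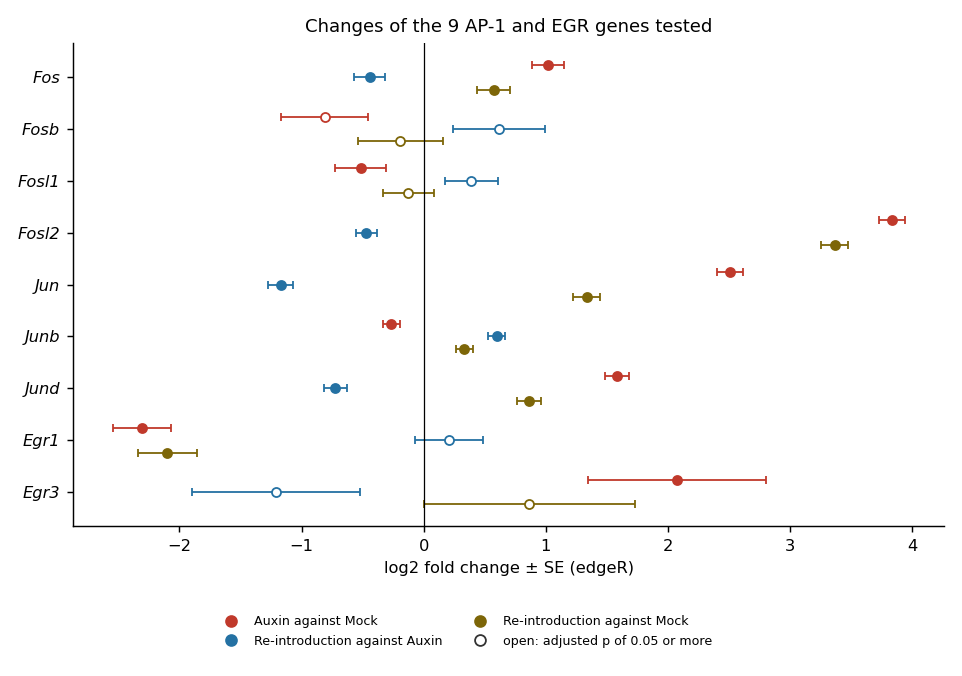
Log2 fold changes (horizontal axis, with SE bars) of the 9 tested genes in Auxin against Mock, Re-introduction against Auxin and Re-introduction against Mock. Filled points passed at an adjusted p under 0.05. Fosl2 at 3.84 and Egr1 at -2.31 are the extremes in Auxin against Mock, and Junb is the only gene with a filled point above 0 in Re-introduction against Auxin.

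Because levels of different genes can be compared only per length, the make-up of each family was taken from RPKM (CPM per kilobase of exon that no other gene shares). The FOS family summed to 1.44 ± 0.0142 RPKM in Mock, 2.61 ± 0.35 in Auxin and 2.23 ± 0.123 in Re-introduction (mean ± SD, n = 3). Fosl2 took 4.02% ± 0.0643 of that sum in Mock, 31.8% ± 1.79 in Auxin and 26.9% ± 1.37 in Re-introduction. Fosl1 took 46.4% ± 5.43, 17.5% ± 2.94 and 27.4% ± 1.93 in the same order, while Fos stayed between 39.9% and 49.8% in every library. In order of level, Fosl1 (0.667 RPKM) and Fos (0.625 RPKM) led in Mock and differed by less than their spread. In Auxin Fos led (1.27 RPKM), followed by Fosl2 (0.826 RPKM) and Fosl1 (0.462 RPKM), and in Re-introduction, below Fos (0.940 RPKM), Fosl1 (0.607 RPKM) and Fosl2 (0.597 RPKM) differed by less than their spread.

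The JUN family lay at a higher level, with 27.8 ± 2.12 RPKM in Mock, 60.3 ± 5.52 in Auxin and 44.7 ± 2.22 in Re-introduction (mean ± SD, n = 3). Jund took 51.5% ± 2.34 of this sum in Mock, 71.6% ± 0.265 in Auxin and 58.5% ± 0.666 in Re-introduction. Junb took 44.1% ± 2.16, 16.9% ± 0.416 and 34.6% ± 0.208, and Jun 4.39% ± 0.282, 11.5% ± 0.252 and 6.89% ± 0.909. Jund at 14.4 ± 1.7 RPKM and Junb at 12.2 ± 0.417 RPKM were therefore close in Mock, and in Auxin Jund (43.2 ± 4.01 RPKM) stood well above Junb (10.2 ± 0.746 RPKM). Over the full exon length, with the shared stretch included, the Mock order turned, with Junb at 11.3 RPKM and Jund at 6.81 RPKM. In Auxin, Jund (20.5 RPKM) was above Junb (9.43 RPKM) on that scale too. The shares describe the libraries and were not tested.

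**Figure D3:**
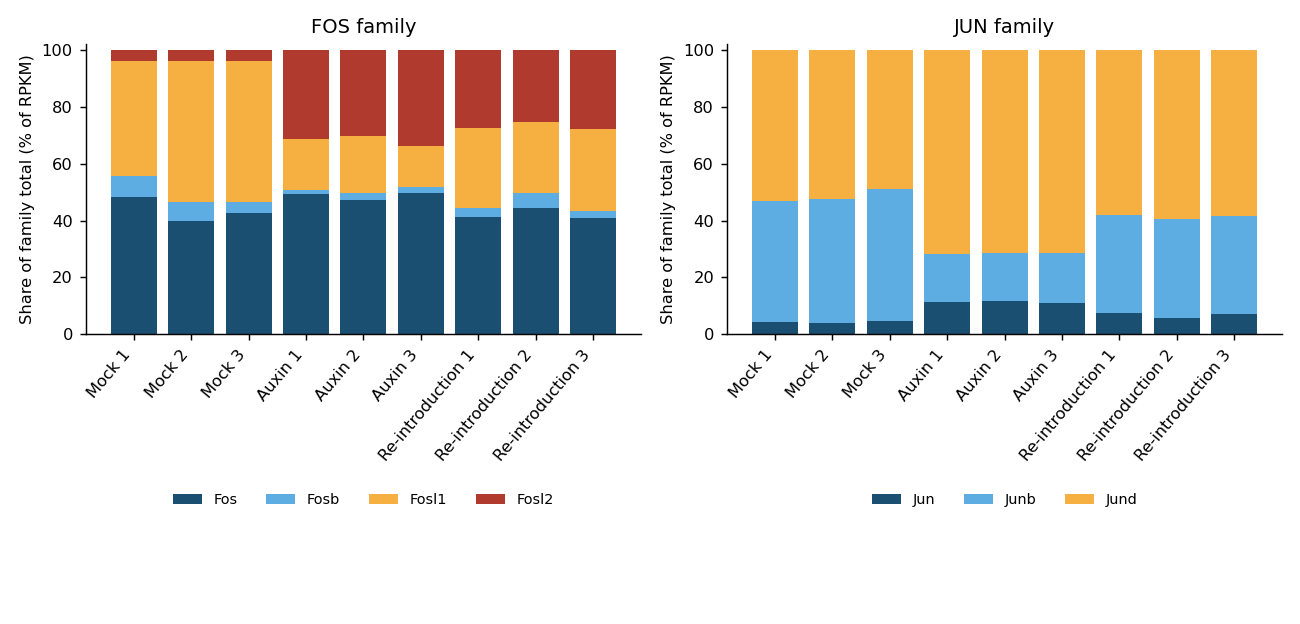
Share of each gene in the summed RPKM of its family (vertical axis, percent, stacked to 100) in the 9 libraries, for the FOS family on the left and the JUN family on the right. The Fosl2 band widens from about 4.02% in Mock to 31.8% in Auxin, and the Junb band narrows from 44.1% to 16.9% and widens again to 34.6% after washout.

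Egr1 took the opposite course. The gene, a direct readout of ERK signalling in many cell types (ENSMUSG00000038418.7, chr18:34859823-34864984, plus strand, 4484 bp), held 2.64, 2.54 and 2.56 CPM in Mock, 0.305, 0.656 and 0.614 in Auxin, with 0.464, 0.601 and 0.735 in Re-introduction. All 6 Auxin and Re-introduction libraries lay far below the 3 Mock libraries and overlapped each other. The log2 fold change was -2.31 in Auxin against Mock (SE 0.241, adjusted p = 4.93e-06) and -2.10 in Re-introduction against Mock (SE 0.241, adjusted p = 1.62e-05). Between Auxin and Re-introduction it was 0.21 (SE 0.277, adjusted p = 0.567), and 3.68% ± 6.6 (SD, n = 3) of the Auxin difference was gone after washout.

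Egr2, known for its role in myelinating Schwann cells, and Egr3, known from muscle spindles and lymphocytes, were near the limit of detection. Egr3 (ENSMUSG00000033730.3, chr14:70077445-70080157, plus strand) had counts of 4, 2 and 1 in the Mock libraries, 13, 5 and 9 in those of Auxin, and 1, 6 and 3 in Re-introduction. It passed the filter through Auxin replicates 1 and 3 and Re-introduction replicate 2, and no Mock library reached the filter's level. Egr3 could thus be tested only through its counts outside Mock, so its call is no independent sign of a rise. It passed the test in Auxin against Mock (log2 fold change 2.08, SE 0.725, adjusted p = 0.0229), a call that rests on 27 against 7 counts, in which both mates of a pair count. It was lost in 5 of the 16 alternatives that gave a value: the DESeq2 Wald test (adjusted p = 0.056) and the fits without Mock replicate 2, Mock replicate 3, Auxin replicate 1 or Auxin replicate 3 (adjusted p 0.0548 to 0.0899). In the other 3, counts halved among them, Egr3 did not pass the filter. The other comparisons of Egr3 gave -1.21 (adjusted p = 0.167) and 0.87 (adjusted p = 0.392). Egr2 (ENSMUSG00000037868.15, chr10:67535475-67542188, plus strand) had counts of 14, 2 and 7 in the Mock libraries, 2, 0 and 6 in those of Auxin, and 10, 2 and 18 in Re-introduction, and the count of 0 allows up to 3 counts in that library. The groups overlapped, and at this depth no difference was detectable: without the filter the log2 fold changes were -1.25 (adjusted p = 0.278), 1.90 (adjusted p = 0.108) and 0.65 (adjusted p = 0.538) in the 3 comparisons. Egr1 made up 93.1% ± 3.14 of the summed EGR RPKM in Mock, and that sum was 0.618 ± 0.0342 RPKM in Mock, 0.212 ± 0.0379 in Auxin and 0.215 ± 0.0575 in Re-introduction (mean ± SD, n = 3).

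**Figure D4:**
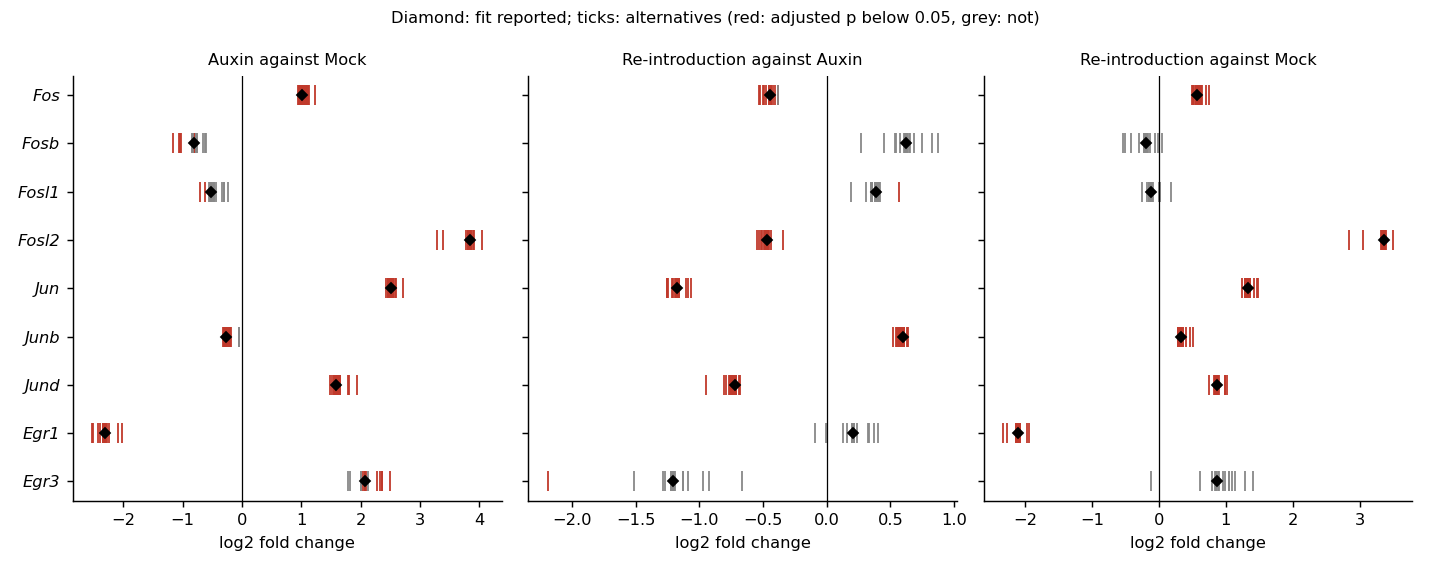
Log2 fold changes (horizontal axes) of the 9 tested genes in the reported fit (diamonds) and under each alternative setting (ticks, red where the adjusted p was under 0.05 and grey where not), 1 panel per comparison. Fosl2, Jun, Jund and Fos keep red ticks in Auxin against Mock, and Fosl1 has grey ticks in 15 of 19 settings.

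Values that move with these results were measured alongside. Their counts are to be read beside the shares over all genes tested. These were 38.4% higher and 34.8% lower in Auxin against Mock, and 25.5% and 25.5% in Re-introduction against Auxin. In Re-introduction against Mock they were 34.7% and 33.4%. The heat shock genes, which respond to handling stress as the immediate early genes do, summed to 6551 to 6568 CPM in Mock, 3899 to 4507 in Auxin and 7694 to 7829 in Re-introduction. Of the 11, 0 were higher and 9 lower in Auxin against Mock (median log2 fold change -0.97), 10 were higher and 0 lower in Re-introduction against Auxin (median 1.19), and 8 were higher and 2 lower in Re-introduction against Mock (median 0.43). Hspa1b, a stress-inducible HSP70, went from 12.1 ± 0.0871 CPM in Mock to 2.601 ± 0.139 in Auxin and 25.1 ± 1.48 in Re-introduction (mean ± SD, n = 3). Junb shares the order of these group levels, while Jun, Jund, Fos and Fosl2 have their highest level where the heat shock genes are lowest. The libraries also differed in how counts depend on gene length: the slope was -0.18 to -0.13 log2 units per doubling of exon length in Mock, 0.03 to 0.12 in Auxin and 0.06 in each Re-introduction library. The slope per 10 percentage points of GC content was 0.15 to 0.27 in Mock and -0.18 to -0.13 in Re-introduction, and in Auxin it was -0.09, 0.13 and -0.14, with replicate 2 apart from the others. Fosl2 rose by at least 3.29 in Auxin against Mock in all 19 alternatives, those with length and GC trends removed included. The part of handling in the results was not tested.

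The zipper partners of the ATF, BATF, JDP and MAF families, with which FOS and JUN proteins can pair, mostly rose in Auxin and fell after washout. Of the 13 tested of 14, 10 were higher and 0 lower in Auxin against Mock (median 0.99), 0 were higher and 10 lower in Re-introduction against Auxin (median -0.57), and 5 were higher and 1 lower in Re-introduction against Mock (median 0.14). With length and GC trends removed, the first count was 9 higher and 1 lower (median 0.71), and the next 0 higher and 9 lower (median -0.52). Both counts of 10 include Maf (0.029 CPM in Mock, 0.674 in Auxin and 0.0455 in Re-introduction), named here after its values were seen. Maf passed the filter only through the Auxin libraries, so its calls are no independent sign of a change. Atf3, a stress-induced repressor that pairs with JUN proteins, rose from 0.507 ± 0.177 CPM in Mock to 31.7 ± 2.33 in Auxin and stood at 1.16 ± 0.155 in Re-introduction (log2 fold change 5.92 in Auxin against Mock, SE 0.17, adjusted p = 2.99e-10). It was still above Mock after washout (log2 fold change 1.13, SE 0.207, adjusted p = 0.000524). Jdp2, a JUN dimerization partner that represses AP-1 targets, went from 3.04 ± 0.26 to 23.4 ± 0.61 and then 2.62 ± 0.25 CPM. In Re-introduction against Mock it did not pass (-0.20, adjusted p = 0.0745). The small MAF gene Maff stayed raised, with 2.65 ± 0.211 CPM in Mock, 12.1 ± 1.18 in Auxin and 8.10 ± 0.245 in Re-introduction, 1.61 above Mock on the log2 scale (SE 0.0957, adjusted p = 1.26e-07). Mafg rose by 0.84 in Auxin against Mock (adjusted p = 4.33e-08) and fell by 0.52 in Re-introduction against Auxin (adjusted p = 6.72e-06). Atf7 was 1.00 higher in Re-introduction than in Mock, and 0.41 with the length trend removed. Mafg lost its call in that comparison with the same change (0.05, adjusted p = 0.37).

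**Figure D5:**
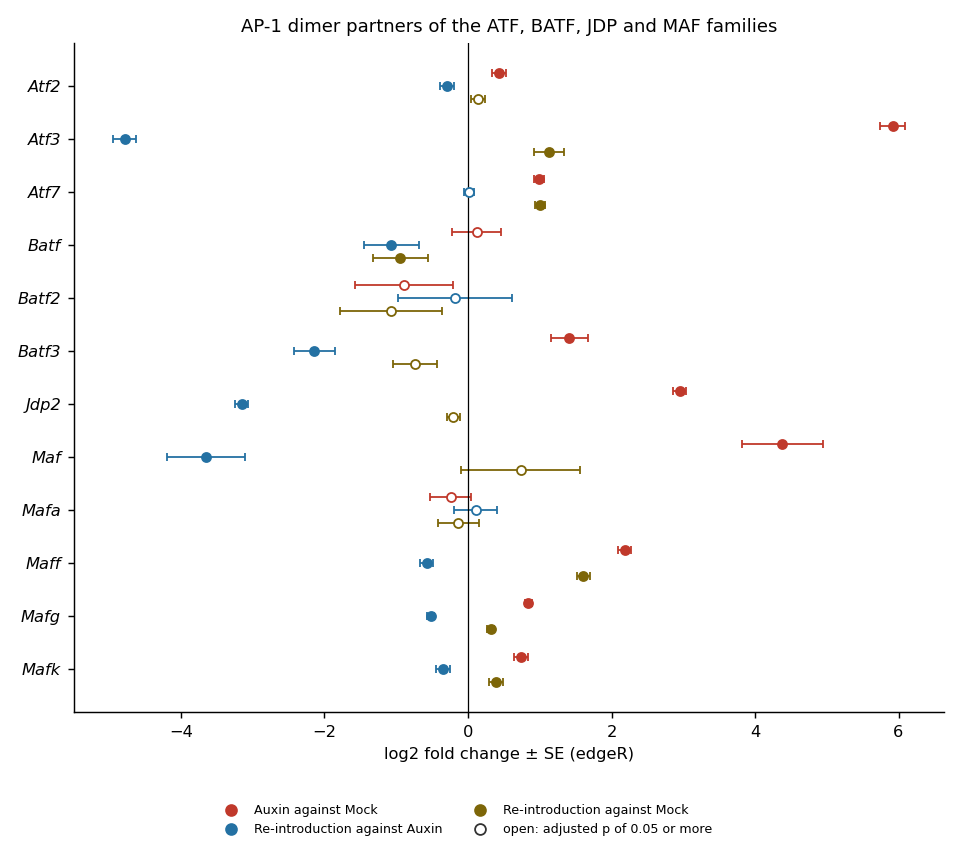
Log2 fold changes (horizontal axis, with SE bars) of 12 of the 13 tested AP-1 partner genes in the 3 comparisons, with filled points where the adjusted p was under 0.05. In Auxin against Mock 9 filled points lie above 0 and none below, and in Re-introduction against Auxin 9 lie below 0, with Atf3 reaching 5.92 and -4.78.

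Other immediate early genes did not share one direction, and neither did all genes tested (38.4% higher and 34.8% lower in Auxin against Mock). Of the 29 tested of 30, 11 were higher and 15 lower in Auxin against Mock (median -0.53), 12 were higher and 8 lower in Re-introduction against Auxin (median 0.18), and 15 were higher and 12 lower in Re-introduction against Mock (median 0.23). Myc, a growth regulator, fell from 67.2 ± 4.65 CPM in Mock to 6.87 ± 0.461 in Auxin (log2 fold change -3.29, SE 0.089, adjusted p = 2.09e-10) and recovered to 25.5 ± 2.39 in Re-introduction, still 1.40 below Mock in log2 units (a log2 fold change of -1.40, adjusted p = 1.11e-07). Gadd45b, a stress-induced gene, fell by 2.83 in Auxin against Mock (adjusted p = 6.81e-10). Klf10, a zinc finger repressor, went the other way, from 79.4 ± 1.17 to 216 ± 7.22 and then 100 ± 2.24 CPM. Trib1 was highest after washout, 1.81 above Auxin (adjusted p = 2e-08) and 1.28 above Mock (adjusted p = 1.17e-07). This list holds Atf3 and Maff as well, which were given with the zipper partners.

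The regulators that act at immediate early promoters did not all move in one direction in any comparison, and single genes moved far. Among 12 genes of the SRF, TCF, MRTF and CREB groups, 7 were higher and 3 lower in Auxin against Mock (median 0.43), 3 higher and 6 lower in Re-introduction against Auxin (median -0.09), and 9 higher and 3 lower in Re-introduction against Mock (median 0.24). With length and GC trends removed, the first count became 5 higher and 5 lower (median 0.03). Srf, the serum response factor that binds the CArG box, was 0.96 higher in Re-introduction than in Auxin (SE 0.0595, adjusted p = 3.06e-07) and 0.48 higher than in Mock (SE 0.0588, adjusted p = 2.71e-05). Its partner Elk4 was 0.57 higher in Re-introduction than in Auxin (adjusted p = 8.93e-05). The CREB coactivator Crtc3 rose from 0.632 ± 0.156 CPM in Mock to 6.56 ± 0.615 in Auxin and 4.76 ± 0.252 in Re-introduction (log2 fold change 3.38 in Auxin against Mock, adjusted p = 6.89e-09). Crtc1 rose by 0.77 in Auxin against Mock, a call lost with the length trend removed (0.17, adjusted p = 0.0692), and Mrtfb rose by 0.78 (adjusted p = 4.42e-07).

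Cytoskeletal targets of SRF share the CArG box with the immediate early genes, and 10 of the 12 tested (of 14) rose after washout. Of these 12, 3 were higher and 6 lower in Auxin against Mock (median -0.44), 10 were higher and 1 lower in Re-introduction against Auxin (median 1.14), and 6 were higher and 2 lower in Re-introduction against Mock (median 0.45). Actb, which encodes beta-actin, fell from 1472 ± 105 CPM in Mock to 459 ± 52.3 in Auxin and stood at 1008 ± 13 in Re-introduction (mean ± SD, n = 3), with a log2 fold change of -1.68 in Auxin against Mock (SE 0.0833, adjusted p = 1.17e-08). Actg1 and Cnn2, encoding gamma-actin and calponin 2, fell by 1.32 and 1.37 in the same comparison. Zyx, the focal adhesion gene zyxin, rose by 1.43 (SE 0.0695, adjusted p = 1.02e-08). Fos, which has a CArG box further upstream than the window shown according to textbook accounts, rose in Auxin, and Egr1, another classical SRF target, fell.

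Genes of the MAP kinase cascade that feeds these genes were called in both directions, as were all genes tested (38.4% higher and 34.8% lower in Auxin against Mock). Of 20 tested of 21, 9 were higher and 10 lower in Auxin against Mock (median -0.11), 6 higher and 3 lower in Re-introduction against Auxin (median 0.06), and 8 higher and 9 lower in Re-introduction against Mock (median -0.06). With total counts in place of TMM these medians were 0.10, -0.02 and 0.07, so the list has no direction that holds under both scalings. Map2k6, a kinase that activates p38, fell from 16.2 ± 0.433 CPM in Mock to 4.41 ± 0.34 in Auxin (log2 fold change -1.88, SE 0.0781, adjusted p = 3.41e-09) and stood at 8.29 ± 0.47 in Re-introduction. The ERK-activated kinase gene Rps6ka2 rose by 1.46 in Auxin against Mock (SE 0.0613, adjusted p = 3.58e-09) and fell by 0.82 after washout. Rps6ka3 rose by 1.85, or by 1.21 with length and GC trends removed. Mapk3, which encodes ERK1, was 1.11 lower in Re-introduction than in Mock (a log2 fold change of -1.11). The activity of these kinases was not measured.

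The 2 EGR co-repressors, which bind EGR proteins and limit their activity, parted. Nab1 rose from 5.45 ± 0.201 CPM in Mock to 21.4 ± 3.56 in Auxin and 27.3 ± 1.01 in Re-introduction (mean ± SD, n = 3), by 1.97 on the log2 scale in Auxin against Mock and by 2.32 in Re-introduction against Mock (SE 0.111, adjusted p = 2.92e-08). Nab2, itself a target of Egr1 in other cells, was at 7.94 ± 0.332 CPM in Mock, 3.4 ± 0.279 in Auxin and 7.63 ± 0.198 in Re-introduction. It was lower by 1.23 in Auxin than in Mock (a log2 fold change of -1.23) and higher by 1.17 in Re-introduction than in Auxin (SE 0.0835, adjusted p = 8.75e-07), whereas Egr1 did not pass in the latter comparison.

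Genes reported as AP-1 targets in other cells did not move as a block, and neither did all genes tested (38.4% higher and 34.8% lower in Auxin against Mock). Of 12 tested of 15, 6 were higher and 3 lower in Auxin against Mock (median 0.42), 3 were higher and 5 lower in Re-introduction against Auxin (median 0.03), and 4 were higher and 2 lower in Re-introduction against Mock (median 0.19). Vegfa, an angiogenic growth factor, rose from 2.30 ± 0.163 CPM in Mock to 127 ± 12.8 in Auxin and stood at 22.2 ± 2.97 in Re-introduction (log2 fold change 5.79 in Auxin against Mock, SE 0.127, adjusted p = 9.52e-11). Ccnd1, the G1 cyclin D1, took the reverse course, from 159 ± 5.37 to 20.1 ± 0.938 and 90.4 ± 2.02 CPM (log2 fold change -2.98, SE 0.0567, adjusted p = 6.73e-11). Spp1, which encodes osteopontin, rose by 1.02 in Auxin against Mock (adjusted p = 1.65e-08). Plaur, the urokinase receptor gene, was highest after washout, 1.06 above Auxin and 1.67 above Mock on the log2 scale.

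Genes whose pattern over the 9 libraries was most like that of Jun or Fos were found by Pearson correlation of log2 CPM among the 15175 genes whose mean reached 1 CPM. For Jun these were Cldn4, Srxn1 and Mapk4, each with r = 0.998. Cldn4, a tight junction gene, measured 40.7 CPM in Mock, 205 in Auxin and 99.9 in Re-introduction, and Srxn1, an antioxidant enzyme gene, 33.7, 83.9 and 53.6. For Fos they were Lemd2 (r = 0.990), Trim26 (r = 0.990) and Col13a1 (r = 0.987). For Egr2 the closest were Gm36210 (r = 0.866), Ints12 (r = 0.857) and Mdm1 (r = 0.833), which at Egr2's counts is no finding. The 9 points fall into the 3 groups and share library and depth, so these correlations mainly repeat the group means and are given as a description.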

How the data were processed

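RNA from 9 libraries (3 each of Mock, Auxin and Re-introduction) was analysed. Unnormalised gene-level counts were deposited; per the file headers, the authors summed exon reads for each gene in featureCounts 2.0.6, with the paired-end flag and no strand setting. Mates were each counted, so fragments are fewer than counts. The submitters' processing notes also list Trim Galore 0.6.10, FastQC 0.12.1, Bowtie2 2.5.3, SAMtools 1.20 and the build mm10, without roles; how the reads were aligned is not given in the sources used here. Symbols matched 48058 of 48440 identifiers. Gene positions come from the file headers' annotation columns, GC content from GENCODE M21 (99.2% of genes).

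Genes passing filterByExpr (20838) entered 1 edgeR 4.0.16 quasi-likelihood fit (R 4.3.3) with TMM factors (0.905 to 1.08) and group as the only term, two-sided, adjusted by Benjamini-Hochberg over all genes tested and called under 0.05. The common biological coefficient of variation was 9.15%. On simulated counts for 20838 genes, 2-fold changes were recovered at 76.0%, 69.0% and 77.0% in Auxin against Mock, Re-introduction against Auxin and Re-introduction against Mock, and false calls made up 5.7%, 8.5% and 6.2% of calls. In each simulation 100 genes changed 2-fold, 100 changed 4-fold and the rest did not change. In the data 73.2%, 50.9% and 68.1% of genes were called, so these rates cannot be carried over to the calls here. The text names all 10 members, of each other list up to 4 called genes with the smallest p in each comparison, and the 3 genes most correlated with Fos, Jun and Egr2; marker genes outside this rule were named after their values were seen. Genes to which this rule applies but that are not named are not reported here, though they are in the counts. Members and lists were chosen with earlier results of these data known. Alternatives were DESeq2 1.42.0 size factors and Wald test, total counts, 2 other filters, a fit of only the groups compared, a replicate block, length and GC trends removed, halved counts and leaving out each library. Promoters are RefSeq's (GRCm38.p6). Protein sequences were not used here.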

Additional observations from a re-analysis of the deposited data

How the results depend on the processing

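The calls of Fos, Fosl2, Jun, Jund and Egr1 in Auxin against Mock and in Re-introduction against Mock, of Fosl2, Jun, Junb and Jund in Re-introduction against Auxin, and of Junb in Re-introduction against Mock held in all 19 alternatives. In Auxin against Mock the log2 fold change ranged from 3.29 to 4.05 for Fosl2, 2.43 to 2.72 for Jun, 1.48 to 1.93 for Jund, 0.95 to 1.23 for Fos and -2.52 to -2.03 for Egr1. Leaving out 1 library at a time gave 4 to 5 members higher and 2 to 4 lower in Auxin against Mock, 1 to 2 higher and 3 to 5 lower in Re-introduction against Auxin, and 5 higher and 1 lower in Re-introduction against Mock each time. Total counts left 1 member called lower in Auxin against Mock in place of 3. It moved the share of calls over all genes that were higher from 50.0% to 40.1% in Re-introduction against Auxin and from 50.9% to 59.9% in Re-introduction against Mock. Directions turned only in values that had not passed the test. In Re-introduction against Auxin, Egr1 gave -0.092 without Auxin replicate 1 and -0.008 without Re-introduction replicate 3, and values up to 0.40 without 1 other library. In Re-introduction against Mock, Fosl1 gave 0.004 with total counts, 0.022 with the length trend removed and 0.18 with length and GC trends removed, Egr3 gave -0.11 without Re-introduction replicate 2 and up to 1.40 without another library, and Fosb gave 0.049 without Re-introduction replicate 3 and down to -0.54 without another. The cause was not tested. In Re-introduction against Auxin, Fos did not pass without Re-introduction replicate 3 (-0.39, adjusted p = 0.0565), Fosl1 passed without Auxin replicate 2 (0.57, adjusted p = 0.0441) and Egr3 passed without Re-introduction replicate 2 (-2.19, adjusted p = 0.0344). The replicate numbers do not pair the samples: deviations of same-numbered libraries correlated between -0.17 and 0.05. With the replicate number as a block, Fosb passed in Auxin against Mock (-0.81, adjusted p = 0.0392) and Fosl1 did not (-0.53, adjusted p = 0.054). Depth limits Egr2 and Egr3, and outliers within groups of 3 were not tested.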

Other observations

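Egr4, the remaining EGR gene, was counted among the other immediate early genes and is named here after its values were seen. It measured 0.377 ± 0.0642 CPM in Mock, 0.0219 ± 0.0379 in Auxin and 0.0165 ± 0.0143 in Re-introduction (mean ± SD, n = 3). In edgeR's quasi-likelihood test it was lower in Auxin than in Mock (log2 fold change -4.00, SE 0.707, adjusted p = 0.000335) and in Re-introduction than in Mock (-4.19, SE 0.743, adjusted p = 0.000435), the same pair of comparisons in which Egr1 was lower. Between Auxin and Re-introduction it gave -0.18 (adjusted p = 0.914). Egr4 was near the limit of detection in Auxin and Re-introduction and passed the filter only through the Mock libraries, where it was higher. Its calls are thus no independent sign of a fall, and the size of its fold changes is uncertain. The genes closest to Egr1 and Fosl2 over the 9 libraries were also looked up after the values were seen. For Egr1 they were 1810024B03Rik (r = 0.988), Sdhaf2 (r = 0.986) and Gm5846 (r = 0.985). For Fosl2 they were Tmem164 (r = 1.000), Dkkl1 (r = 0.999) and Ptpn9 (r = 0.999). Dkkl1 measured 0.562 CPM in Mock, 6.66 in Auxin and 4.87 in Re-introduction. These correlations mainly repeat the group means.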
